A study of Homo sapiens with 4 samples.

Results

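The replication-dependent histone genes, which encode the linker histone H1 and the core histones H2A, H2B, H3 and H4, were examined in darolutamide-resistant prostate cancer cells after knockdown of the lncRNA LOC730101. Members were chosen by gene name, as the rows of the count table named H1-1 to H1-6 or H2AC, H2BC, H3C or H4C followed by a number. This gave 66 of the 60606 genes in the table, with 6 H1, 16 H2A, 17 H2B, 13 H3 and 14 H4 genes. RNA was sequenced from LNCaP-DaroR (DaroR) cells, a line derived from LNCaP prostate cancer cells by culture in rising and then constant darolutamide, an antiandrogen that the methods keep in the medium of both groups. Cells of 2 libraries were transfected with control siRNA (siControl) and cells of the other 2 libraries with a pool of siRNAs against LOC730101 (siLOC730101), so that all 4 libraries came from a single resistant line. The pool mixes several siRNAs, whose separate effects cannot be told apart. The labels name polyA RNA as the material. The labels number the libraries 1 and 2 in each group without naming separate cultures, so that p-values measure the spread between these libraries, which may be technical.

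Replication-dependent histone genes are transcribed in S phase, when newly copied DNA has to be packed into nucleosomes. Their main mRNAs have no polyA tail and end just after a conserved stem-loop in the 3′ UTR, which is bound by the stem-loop binding protein SLBP and is needed for 3′ end cutting by the U7 snRNP. Some of these genes also give transcripts that are cut further downstream and carry a polyA tail. The counts here come from polyA RNA and do not separate the reads of tail-less mRNAs from those of transcripts with a tail.

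The stem-loop was searched for in the annotated transcripts of the members (gencode 44 lifted to GRCh37), since the tail-less mRNAs end just after it. The annotation held 61 of the 66 genes by name. A stem of 6 base pairs, with at most 1 unpaired position, around a loop of 4 bases was found after the stop codon in all 61 genes, between 22 and 67 nucleotides downstream. The sequences of the 10 genes below carry the results that follow, as the highest members of their classes or as genes with an unusual stem-loop. Each runs 5′ to 3′ on the strand of the gene, with the 16 bases of the stem-loop in capitals.

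H2BC12: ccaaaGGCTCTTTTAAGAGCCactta
H1-2: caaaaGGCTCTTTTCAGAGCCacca
H2AC6: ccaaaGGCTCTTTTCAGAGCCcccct
H2BC21: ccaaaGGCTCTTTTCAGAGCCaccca
H2AC15: aaaaaGGTTCTTTTCAGAGCCaccta
H2BC5: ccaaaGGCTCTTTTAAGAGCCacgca
H3C6: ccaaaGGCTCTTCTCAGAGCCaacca
H4C8: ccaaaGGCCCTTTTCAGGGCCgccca
H2AC11: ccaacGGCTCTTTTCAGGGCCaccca
H2AC20: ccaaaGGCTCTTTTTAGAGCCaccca

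There were 10 different stem-loops, and the one of H2BC21, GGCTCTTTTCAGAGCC, was shared by 36 genes. The H4 genes stood apart in sequence, as the stem began with GGCCC in all 12 H4 genes and in 0 of the 49 other genes. In those 49 genes it began with GGCTC in 48, the exception being H2AC15. In 46 of the 61 genes every annotated transcript ended within 11 nucleotides after the stem-loop. The other 15 genes had a transcript that ran on for more than 30 nucleotides, as in H2AC6, H2BC21, H3C6, H3C10 and H4C8, or that did not contain the stem-loop, as in H2BC5, H2BC4, H2BC11 and H2BC15.

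The promoters of the members, taken from RefSeq on GRCh38.p14 as windows of 300 bases around the gene start, also differed between classes. A promoter sequence was found for 61 members. CCAAT was found on either strand in 52 of them (85.2%), against 35.7% of 27305 promoters in all. It was present in all promoters of H1, H2A, H2B and H3 genes and in 3 of 12 promoters of H4 genes. TATAAA was found in 67.2% of the member promoters and in 12% of all promoters. The octamer ATTTGCAT, which OCT1 binds, was found in 14 of 17 H2B and 11 of 15 H2A promoters, against 1.8% of all promoters. It was found in 1 of 11 H3 promoters, 0 of 6 H1 promoters and 0 of 12 H4 promoters. Where an H2A and an H2B gene start close together, the same match can count for both. These matches describe letters in a window and do not show binding.

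The 4 libraries held 39213498 to 53368158 counts, with the lower totals in siLOC730101. LOC730101, which the table lists under ENSG00000216775 (GRCh38 chr6:52664366-52669155), fell from 2560 and 2370 counts with control siRNA to 633 and 680 after knockdown, a log2 fold change of -1.56 ± 0.12 (SE, edgeR adjusted p = 4.34e-06). All 8 LNCaP markers, among them KLK3, were expressed, with 48.3 to 376.0 CPM per kilobase, where CPM is the count scaled to the TMM-adjusted library size. Of 6 markers of other cells, PTPRC, KRT5 and TP63 had 0 counts in every library, PECAM1 had 0 counts in siControl and 2 in each siLOC730101 library, and COL1A1 was at most 14.7 CPM, with overlapping groups. VIM was at 2.87 and 2.33 CPM in siControl and at 3.48 and 3.77 CPM in siLOC730101, without overlap, and its part in the results below was not tested.

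The histone genes together held 10204 and 8052 counts in siControl against 8140 and 8198 in siLOC730101, which is a small part of each library. Scaled with the TMM factors of edgeR, the summed level was 188.8 and 172.0 CPM in siControl and 198.1 and 215.9 CPM in siLOC730101. Both siLOC730101 libraries lay above both siControl libraries, and the log2 ratio of the group means was 0.20, beside a standard deviation between replicates of 0.091 on the log2 scale. The rise was not shared by all members. This ratio was -0.049 for those on chromosome 1, and 0.23 and 0.31 for the earlier and later blocks on chromosome 6 given below. The smallest two-sided p of an exact permutation test with 2 libraries in each group is 0.333, so that this test cannot pass a threshold of 0.05 here, and no other test of the sum was run. In bulk RNA, a different number of cells in S phase and a different amount of histone mRNA per cell cannot be told apart.

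A few members held nearly all of the counts. H2BC21, H2BC12, H2AC6, H1-2, H3C6, H2BC15, H4C8 and H3C10 made up 83.2% to 84.8% of the histone counts in each library. At the other end, 10 genes had 0 counts in every library. These were H1-1, H2AC1, H2BC1, H2BC9, H2BC10, H3C3, H3C7, H3C8, H4C7 and H4C13, of which H2AC1 and H2BC1 are the testis histones TH2A and TH2B. A count of 0 allows a level of up to 0.0555 to 0.0790 CPM, depending on the library, for counting error only. A further 23 genes had counts too low for the expression filter of edgeR, and 33 genes passed it. The blocks of the genome in which the genes lie were detected unevenly. Of the 34 genes between 25726063 and 26285638 on chromosome 6 of GRCh38, 12 passed the filter and 9 had 0 counts. Of the 21 genes between 27125897 and 27893891 on the same chromosome, 13 passed, and of the 11 genes between 149782689 and 149887965 on chromosome 1, 8 passed.

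**Figure D1:**
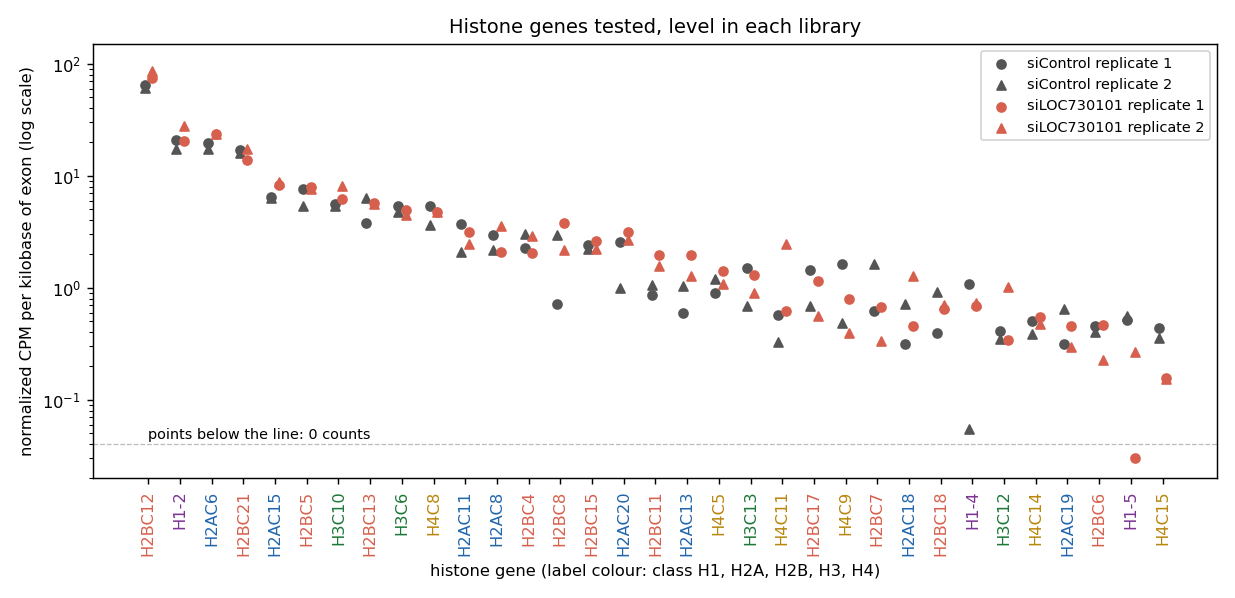
Normalized CPM per kilobase of exon (log scale) of the 33 histone genes that passed the expression filter, ordered by their mean. Circles and triangles are replicates 1 and 2, grey for siControl and red for siLOC730101, and label colours give the class. H2BC12 lies between 61.0 and 86.1 in the 4 libraries, above every other gene, and the libraries of the low genes on the right scatter widely.

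Levels of different genes were compared per kilobase of exon. H2BC12, an H2B gene (GRCh38 chr6:27146361-27146855, minus strand), was the highest, with 64.2 and 61.0 CPM per kilobase in siControl and 74.5 and 86.1 CPM per kilobase in siLOC730101. No other member reached its lowest value in any library. The linker histone gene H1-2 (GRCh38 chr6:26055740-26056470, minus strand) had 20.8, 17.2, 20.4 and 27.9 CPM per kilobase in the same order of libraries. H2AC6 (GRCh38 chr6:26124145-26139116, plus strand) had 19.4, 17.5, 23.8 and 23.5 CPM per kilobase, and its range over the libraries lay within that of H1-2. H2BC21 (GRCh38 chr1:149884459-149886682, minus strand) lay between 13.9 and 17.5 CPM per kilobase, and its range overlapped that of H1-2. Below these came H2AC15, H2BC5, H3C10, H2BC13, H3C6 and H4C8, with means from 7.46 down to 4.62 CPM per kilobase, and neighbours in that order overlapped over the libraries. The highest H3 gene was therefore H3C10, with a mean of 6.29 CPM per kilobase, and the highest H4 gene was H4C8, with 4.62. Where a table entry joins several transcripts, as in H2BC15 with 4265 nucleotides of exon, the level per kilobase depends on which of them was present, and H2BC15 had 2.37 CPM per kilobase but 9.95 ± 0.56 CPM (SD, n = 2) in siControl.

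The levels were set beside the annotated 3′ ends. The 15 genes whose transcripts ran past or left out the stem-loop held 64.9% of all histone counts, and 14 of them passed the expression filter, the exception being H2AC1. Their median level over the 4 libraries was 2.37 CPM per kilobase. The 3′ ends and the counts rest on different gencode versions. The counted exons were shorter than the longest annotated transcript in H2AC1 (500 against 1043 bases) and H2BC4 (723 against 2548 bases). For both genes the counts therefore do not cover the whole of that transcript. In the other genes of this kind the counted exons were as long or longer. The 46 genes whose transcripts all ended at the stem-loop held 34.0% of the counts, 16 of them passed the filter, and their median level was 0.17 CPM per kilobase. H2BC12 and H1-2 departed from this pattern. Both are annotated as ending at the stem-loop, and together they held 26.2% of all histone counts, while the remaining 44 genes of that kind held 7.85%. In H2AC6, the stem-loop is followed by CCCCT, where that of H2BC21 is followed by ACCCA, and the longest annotated transcript ran on for 1128 nucleotides. For H2BC21 that distance was 1729 nucleotides, for H3C6 it was 1862 and for H4C8 it was 1655. The 5 genes missing from the annotation, H2AC18, H2BC7, H2BC8, H4C2 and H4C6, held 1.01% of the counts.

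**Figure D2:**
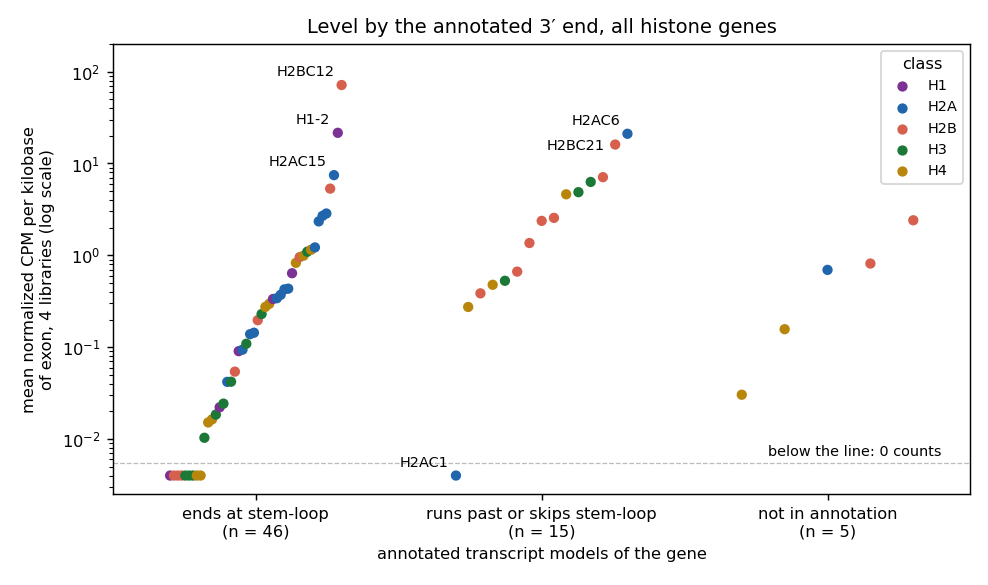
Mean normalized CPM per kilobase of exon over the 4 libraries (log scale) for all 66 histone genes, grouped by whether every annotated transcript ends at the stem-loop (46 genes), some transcript runs past or skips it (15 genes), or the gene is missing from the annotation (5 genes). Points are genes coloured by class, and those below the dashed line had 0 counts. H2BC12 and H1-2 stand above the other genes that end at the stem-loop. H2AC1 and H2BC4 are grouped by transcripts longer than the exons that were counted.

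H2A and H2B genes often lie head to head, so that both start from the same short stretch of DNA. There were 11 such pairs among the members, with 170 to 251 bases between the starts. The H2B gene had the higher mean level per kilobase in 5 pairs, the H2A gene in 5, and H2AC1 and H2BC1 both had 0 counts. This tally depends on exon length, since H2AC15 was higher per kilobase while H2BC15 had more counts, 1821 against 654. H2AC7 and H2AC17 share exon bases with other genes of the table, as given below. The gap was widest between H2BC12, with 71.5 CPM per kilobase, and its partner H2AC12, with 0.14 CPM per kilobase and 12 counts in all 4 libraries, a ratio of 498. H2AC6 had 8.24 times the level of H2BC4, and H2BC21 had 6.87 times that of H2AC20. H2AC8 and H2BC8 were close, at 2.69 and 2.41 CPM per kilobase. A shared start region did not go with equal levels in these polyA libraries.

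**Figure D3:**
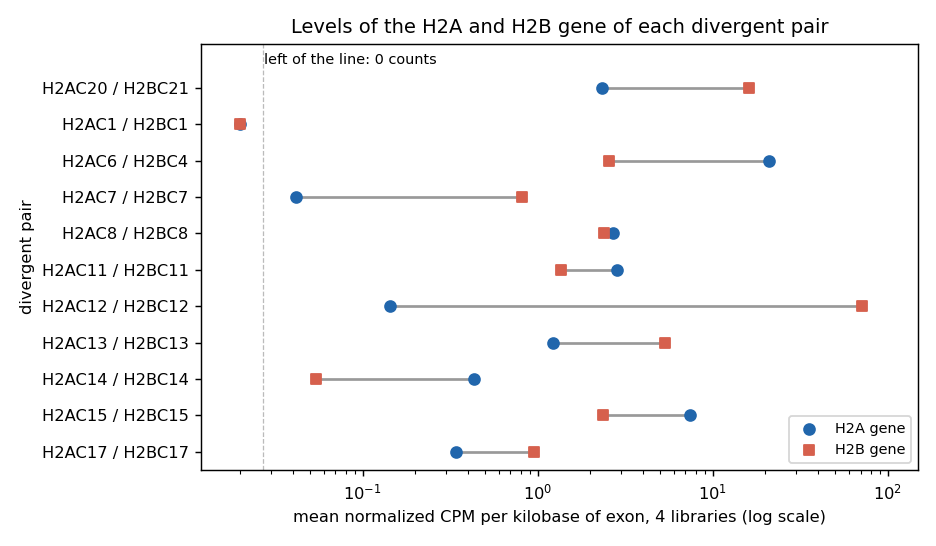
Mean normalized CPM per kilobase of exon over the 4 libraries (log scale) of the H2A gene (blue circle) and the H2B gene (red square) of the 11 divergent pairs, joined by a grey line. H2BC12 lies 498 times above H2AC12, while H2AC8 and H2BC8 nearly coincide.

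Some histone genes share long stretches of sequence, and their own counts are uncertain. All runs of 100 nucleotides were compared among the annotated transcripts of the histone family. They were unique to the gene for 43 of the 61 genes, H1-2, H2AC6 and H3C6 among them. In 6 genes, H3C14, H3C15, H4C11, H4C12, H4C14 and H4C15, under 10% of these runs were unique. The 5 genes missing from the annotation were not compared, so that the unique share of H2AC19, 88.5%, does not cover H2AC18. For H2BC12 the share was 77.5%, with H2BC12L on chromosome 21 as the gene that shared most with it. H2BC12L itself had 6, 2, 4 and 4 counts, so that the sum of both differed little from H2BC12 alone. The exons of 8 members overlapped those of another gene of the table. H4C8 and H2BC6 overlapped genes on the opposite strand, which were counted without a strand option. H3C12 and H2AC17 shared 346 bases with each other on the same strand. On the same strand, ENSG00000282988 covered 435 of the 510 exon bases of H2AC7 and 486 of the 503 of H3C4. The effect of these overlaps on the counts was not tested.

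The expression of each member was compared between siLOC730101 and siControl to ask whether the knockdown changed histone gene expression. None of the 33 histone genes tested passed the threshold of 0.05 on the adjusted p of edgeR's quasi-likelihood fit, which 0.284% of all 19349 genes tested did, 0.212% as higher and 0.0724% as lower after siLOC730101. The smallest adjusted p among them was 0.177 (edgeR), and in DESeq2, another count test, it was 0.107. DESeq2 gave an adjusted p to only 5 members, H1-2, H2AC6, H2BC12, H2BC21 and H3C6, and called 0 of them, where 2.46% of the genes with an adjusted p were called higher and 0.661% lower. With the replicate number as a term in edgeR, 2 members were called higher, H2AC6 and H2BC12, and 0 lower, against 2.51% and 0.863% of all genes. At an unadjusted p under 0.05, 2 of the 33 genes were higher (H2AC6 and H2BC12, 6.06%) and 0 were lower, where 6.43% and 4.39% of all genes were. The share of higher genes was thus close to that of all genes. The log2 fold change was above 0 in 22 of the 33 genes (66.7%), against 49.6% of all genes tested, and the median was 0.16, against -0.0021 for all genes. These counts cover only the genes that passed the filter, and the median was 0.36 without siControl replicate 1 and 0.12 to 0.14 when a different library was left out. Among the 18 members with a mean normalized count above 50, 14 had a log2 fold change above 0 (77.8%, against 52.6% of all such genes), with a median of 0.21. In this subset 7 genes were higher in both siLOC730101 libraries (38.9%, against 24.3% of all such genes) and 0 were lower in both, against 19.7%.

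H2AC6 had 32.4 and 29.2 CPM in siControl against 39.6 and 39.3 CPM in siLOC730101. Both siLOC730101 libraries were higher than both siControl libraries, by 0.36 ± 0.11 (SE) on the log2 scale (edgeR adjusted p = 0.177). H2BC12 had 31.8 and 30.2 CPM in siControl and 36.9 and 42.6 CPM in siLOC730101, again without overlap, and its log2 difference was also 0.36 ± 0.11 (SE, edgeR adjusted p = 0.191). The adjusted p ranged from 0.0370 to 0.663 for H2AC6 and from 0.00937 to 0.714 for H2BC12 over the alternatives in edgeR and DESeq2, and that of H2BC12 was lowest without siLOC730101 replicate 1. H2BC21, the member with the most counts, had 37.7 and 35.6 CPM in siControl and 30.9 and 38.9 CPM in siLOC730101. Its groups overlapped, and its log2 fold change of -0.071 ± 0.12 (SE) became 0.094 without siLOC730101 replicate 1. With all 4 libraries, none of these 3 differences passed the test without the replicate term.

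Of the H1 genes, H1-2 had 15.2 and 12.6 CPM in siControl and 14.9 and 20.4 CPM in siLOC730101. The groups overlapped, and siLOC730101 replicate 2 stood highest, with a log2 fold change of 0.34 ± 0.17 (SE, edgeR adjusted p = 0.489), which was 0.56 with an edgeR adjusted p of 0.0381 without siLOC730101 replicate 1 and 0.097 without replicate 2. H1-5 had 22 and 21 counts in siControl against 0 and 8 in siLOC730101, so that the groups did not overlap, but its log2 fold change of -2.02 had a standard error of 1.25. For H1-4 the siControl libraries had 46 and 2 counts, while each siLOC730101 library had 22, a spread within siControl wider than the difference between groups. H1-3 and H1-6 had at most 6 counts in any library.

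Among the H3 genes, H3C10 had 6.97 and 6.67 CPM in siControl and 7.79 and 10.0 CPM in siLOC730101. It was higher in both siLOC730101 libraries, with a log2 fold change of 0.38 ± 0.20 (SE, edgeR adjusted p = 0.521), which was 0.19 without siLOC730101 replicate 2. H3C6 had 14.2 and 12.6 CPM in siControl and 13.3 and 12.1 CPM in siLOC730101, and its groups overlapped. The other H3 genes that were tested, H3C13 and H3C12, had 12 to 38 counts in a library and standard errors above 0.7 on the log2 scale. H3C13, with 0.51 CPM in the mean of either group, did not separate them.

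Of the H4 genes, H4C8 had 11.5 and 7.88 CPM in siControl and 10.2 and 10.3 CPM in siLOC730101, where the siControl libraries lay on either side of both siLOC730101 libraries. The largest differences in this class were in genes with near-identical copies. H4C15 had 44 and 31 counts in siControl against 12 and 11 in siLOC730101, with a log2 fold change of -1.34 ± 0.74 (SE, edgeR adjusted p = 0.555). Its copy H4C14 had 51, 34, 42 and 34 counts in the same order, with overlapping groups, and the reads of both cannot be assigned with certainty. Their summed counts were 95 and 65 in siControl and 54 and 45 in siLOC730101, a log2 ratio of -0.33. H4C11 had 12 and 6 counts in siControl against 10 and 36 in siLOC730101, which did not overlap as CPM, but summed with its near-identical copy H4C12 the counts were 20 and 6 against 13 and 45, with overlapping groups. Its log2 fold change of 1.74 ± 0.98 (SE) was 0.46 at the lowest with a library left out. H4C5 and H4C9 had 6 to 35 counts in a library, with standard errors of 0.77 and 0.98.

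Among the H2A and H2B genes that passed the filter, groups without overlap were found for H2AC15, H2AC20, H2AC13, H2BC11 and H2BC5 besides H2AC6 and H2BC12. H2AC15 had 3.20 and 3.12 CPM in siControl and 4.09 and 4.40 CPM in siLOC730101, with a log2 fold change of 0.42 ± 0.26 (SE, edgeR adjusted p = 0.607). H2BC11 had 0.91 and 1.11 CPM in siControl and 2.04 and 1.63 CPM in siLOC730101, the highest log2 fold change among members with a mean normalized count above 50, at 0.87 (standard error 0.43, adjusted p = 0.501, edgeR). H2AC20 followed with 0.71 ± 0.53 (SE), though its siControl libraries had 68 and 23 counts, and the value was 0.20 without the second of them and 1.54 without the first. H2BC8 had 19 and 68 counts in siControl against 76 and 40 in siLOC730101, so that its log2 fold change of 0.70 was within the spread of its replicates. H2BC5 had 6.49 and 4.64 CPM in siControl against 6.77 and 6.53 CPM, with a log2 fold change of 0.25 ± 0.23 (SE), which leaving out siControl replicate 2 moved to 0.037 and leaving out replicate 1 to 0.52. The log2 fold changes were 0.16 for H2BC13, 0.13 for H2AC8, -0.047 for H2AC11 and -0.10 for H2BC4, each with overlapping groups. In all, 9 of the 33 genes were higher in both siLOC730101 libraries (27.3%, against 21.3% of all genes tested) and 2 were lower in both (6.06%, against 20.5%).

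**Figure D4:**
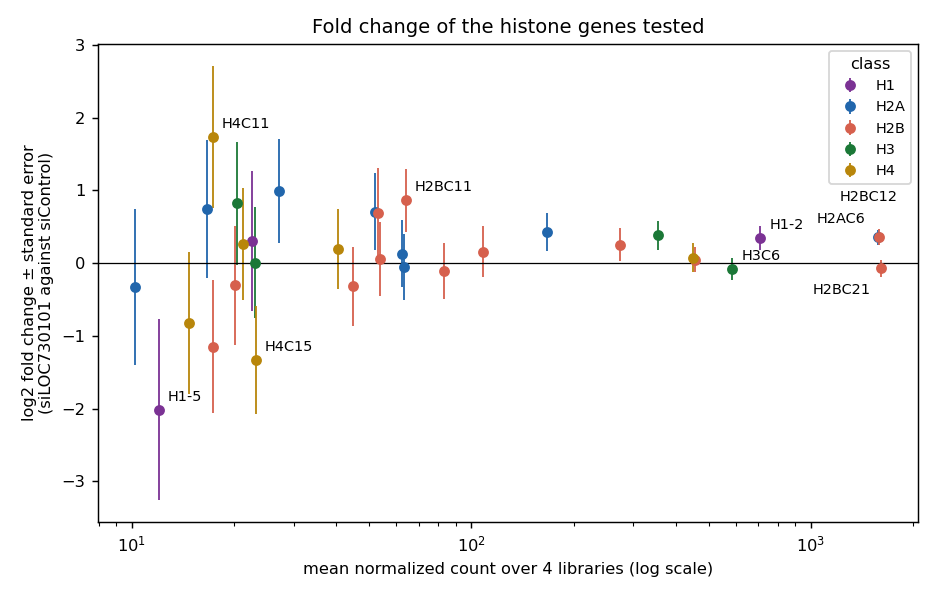
Log2 fold change (siLOC730101 against siControl) of the 33 histone genes tested against their mean normalized count over the 4 libraries (log scale), with standard errors as bars and the class as colour. The bars are short for H2BC21, H2AC6 and H2BC12 on the right and reach 1.25 for H1-5 on the left.

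Most mRNAs of replication-independent histones carry a polyA tail and are also made outside S phase. These histones were measured for comparison with a list of 12 genes. Their median level was 65.3 CPM per kilobase, against 0.36 for the 66 replication-dependent genes. Among the 11 genes tested, 0 passed an adjusted p of 0.05 in edgeR, and 2, H3-3A and H1-10, were higher at an unadjusted p under 0.05 (18.2%, against 6.43% of all genes). H1-10, a linker histone, had 131.5 and 147.4 CPM in siControl and 153.9 and 196.0 CPM in siLOC730101, with a log2 fold change of 0.33 ± 0.10 (SE, edgeR adjusted p = 0.207). Without siLOC730101 replicate 1 the adjusted p of H1-10 in edgeR was 6.38e-08, and over all alternatives in edgeR and DESeq2 it reached 0.757. H2AX, which marks DNA breaks when it is phosphorylated, and H2AZ1, found at promoters, had log2 fold changes of 0.016 and 0.033, and both had overlapping groups. The median log2 fold change of the list was 0.11.

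The genes that transcribe and process histone mRNA were examined with a list of 31 genes, of which 30 were tested and RNU7-1, the U7 snRNA without a polyA tail, had 0 counts in every library. None passed an adjusted p of 0.05 in edgeR, and the median log2 fold change was 0.074. SLBP had 93.3 and 93.2 CPM in siControl and 94.9 and 102.3 CPM in siLOC730101, a log2 fold change of 0.081 ± 0.082 (SE). NPAT, the coactivator of histone transcription in S phase, had a log2 fold change of 0.055 ± 0.11 (SE). CASP8AP2, which recruits the cutting complex, had 1.82 to 2.59 CPM and a log2 fold change of -0.23 ± 0.34 (SE). For the U7 snRNP proteins LSM10 and LSM11 the values were 0.10 and -0.20, and for ERI1, an exonuclease that trims the stem-loop end, 0.096, each within 2 standard errors of 0. Before adjustment, 3 genes were higher at 0.05 (10.0%, against 6.43% of all genes) and 0 were lower (against 4.39%). These were LSM1 (log2 fold change 0.54, adjusted p = 0.148, edgeR), SNRPG (0.46, adjusted p = 0.116, edgeR) and SNRPB (0.31, adjusted p = 0.125, edgeR), which were named after their values were seen. LSM1 belongs to the ring that starts decay of mRNAs, and SNRPG and SNRPB are Sm proteins shared by U7 and the spliceosomal snRNPs.

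Histone chaperones and import factors, which carry new histones to DNA, had 27 of 28 genes tested and a median log2 fold change of -0.028. In edgeR 0 genes passed an adjusted p of 0.05, and MMS22L, named after its value was seen, was the single gene with an unadjusted p under 0.05 (log2 fold change -0.31, adjusted p = 0.427, edgeR), which is 3.7% of the list against 4.39% of all genes as lower. Without overlap, 11 of the 27 genes were lower (40.7%, against 20.5% of all genes). A list of 16 other genes expressed in S phase, chosen with earlier results of these data known, had a median log2 fold change of -0.16. All 16 values were below 0, while 49.6% of all genes were above 0. Genes that act around this phase also stood in the other lists, such as CCNE2 at 0.23 and MCM2 at -0.16, named after their values were seen. Both siLOC730101 libraries lay below both siControl libraries for 12 of the 16 genes (75%, against 20.5% of all genes). Again 0 genes passed an adjusted p of 0.05 in edgeR, and 5 were lower at an unadjusted p under 0.05 (31.2%, against 4.39% of all genes), which were RRM2, MKI67, RRM1, CDC6 and MCM5, named after their values were seen, with log2 fold changes from -0.35 to -0.24. The medians of the histone genes and of this list had opposite signs, at 0.16 and -0.16, and that of the replication-independent histones was 0.11. All of these lists were chosen with earlier results of these data known, and the differences between them were not tested.

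**Figure D5:**
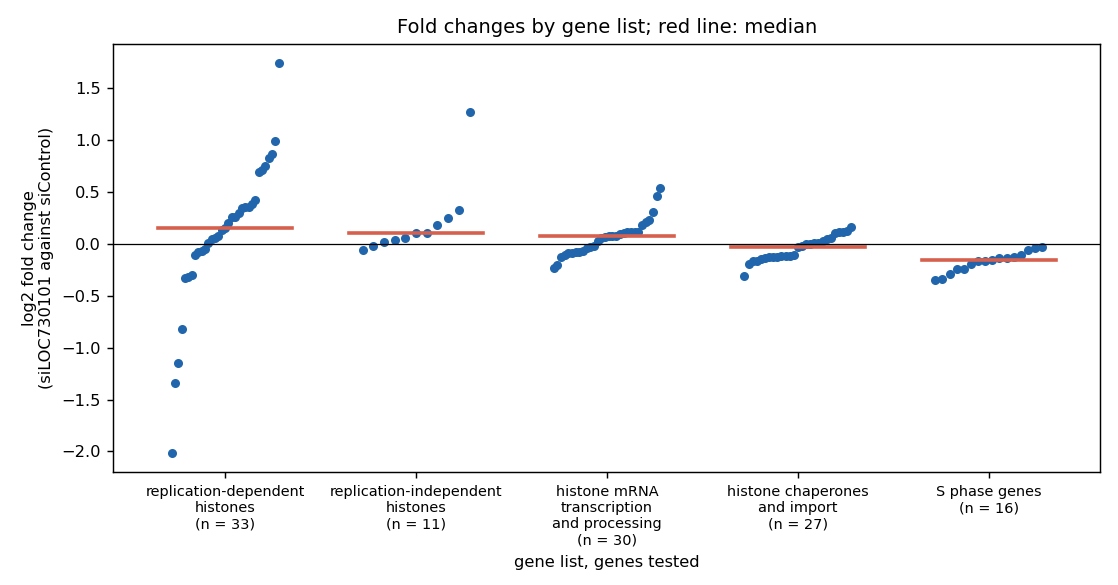
Log2 fold changes (siLOC730101 against siControl) of the genes tested in 5 lists, with 1 point for each gene, sorted within its list, and a red line at the median. The medians are 0.16 for replication-dependent histones, 0.11 for replication-independent histones, 0.074 for transcription and processing, -0.028 for chaperones and -0.16 for S phase genes, and the spread is widest among the replication-dependent histones.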

How the data were processed

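The 4 libraries of DaroR cells were deposited as raw counts per gene. Before deposit, the authors used Trim-galore, an aligner and featureCounts 2.0.1, which summed exon reads by gene name, and did not normalize. The header of the table names hg38 and gencode 41, the methods of the paper name STAR and hg19, and the submitters' processing notes name BWA. The command has no paired-end, strand or multi-mapping option, so that mates may be counted apart and reads with several positions may have been left out. LOC730101 was found by its RefSeq position.

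The test was run with edgeR 4.0.16 under R 4.3.3 (filterByExpr, TMM, glmQLFit and glmQLFTest, condition as the only term), and p-values were adjusted over 19349 genes by Benjamini-Hochberg. The threshold was 0.05. CPM values use the TMM library sizes. DESeq2 1.42.0, other scalings and filters, other quasi-likelihood settings, halved counts, a replicate term and leaving out each library were alternatives. Replicates differed beyond sampling noise (chi-square over degrees of freedom 11.3 in siControl, 14.2 in siLOC730101). The test was also run on simulated counts, and no result here rests on that trial.

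The members and lists were chosen with earlier results of these data known. Named are the 4 highest tested genes of each class by CPM per kilobase, the extremes of log2 fold change (4 up, 4 down) among members with a mean normalized count above 50, any gene with an adjusted p under 0.05, the 4 highest replication-independent histones, SLBP, NPAT, CASP8AP2, LSM10, LSM11, ERI1, LOC730101, and members that share proteins or exons with a named one. Some genes that the rule or lists cover are not reported here. Other members are named for counts or positions, with their values seen. Stem-loops, shared runs of sequence and promoter motifs were read from the gencode 44 transcripts on GRCh37 and from RefSeq promoters, without converting coordinates.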

Additional observations from a re-analysis of the deposited data

How the results depend on the processing

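With 2 libraries in each group, the low counts of most histone genes limit what could be called, and the counts do not separate tail-less mRNAs from those with a tail. The number of histone genes called higher rose from 0 to 2 with the replicate block (H2AC6 and H2BC12) and ranged from 0 to 2 when each library was left out; 0 were called lower under the 14 alternatives. The replicate numbers shared no batch in the labels, and replicate differences of both groups correlated at 0.027 over the genes tested, so the block is no paired design. It moved the calls over all genes from 41 and 14 to 485 and 167. Other settings that moved these by over 1.5 times were DESeq2 (234 and 63), no filter beyond 1 count (324 and 113), a mean count above 50 (123 and 50), the legacy method off (87 and 24), halved counts (113 and 35) and, for lower genes, library size only (35). With a library left out they ranged from 77 to 923 and from 26 to 272, most without siLOC730101 replicate 1. The median of all genes moved by -0.037 with library size only, and the histone median stayed above 0 under the 14 alternatives, from 0.12 to 0.36 with a library left out; the log2 ratio of the summed CPM ranged from 0.13 to 0.27.

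Replication-independent histones called rose from 0 to 1 with DESeq2 and with no filter, to 2 with the replicate block, and ranged from 0 to 3 with a library left out. Processing genes called were 2 with DESeq2, 3 with no filter and with the block, and 0 to 3 with a library left out. S phase genes called were 3 with DESeq2, no filter and the block, 2 with a mean count above 50, 1 with library size only and with halved counts, and 0 to 3 with a library left out. No chaperone was called under the alternatives. The shares over all genes rose as well, from 0.212% higher and 0.0724% lower in the main fit. They were 2.51% and 0.863% with the block, and 2.46% and 0.661% with DESeq2. The rises in these lists therefore cannot be read as particular to them.

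Of 33 named genes, 17 changed the direction of the log2 fold change in some alternative. H3C13 became -0.024 with upper-quartile factors, -0.028 with library size only, -0.018 with the legacy method off and -0.069 with halved counts. H2AX became -0.016 with upper-quartile factors, -0.023 with library size only and -2.4e-04 with a mean count above 50, and H2AZ1 became -0.0053 with library size only. With a library left out, the ranges were -0.25 to 0.094 for H2BC21, -0.17 to 0.57 for H2BC13, -0.17 to 0.012 for H3C6, -0.44 to 0.68 for H3C13, -0.16 to 1.42 for H3C12, -0.17 to 0.38 for H4C8, -1.43 to 0.30 for H4C9, -0.40 to 0.43 for H2AC11, -0.31 to 0.48 for H2AC8, -0.61 to 3.62 for H1-4, -0.37 to 0.13 for H2BC4, -0.021 to 0.092 for H2AZ1, -0.10 to 0.13 for H2AX, -0.043 to 0.15 for NPAT, -0.033 to 0.26 for LSM10, -0.44 to 0.076 for LSM11 and -0.032 to 0.24 for ERI1. Other named genes kept their direction with a library left out but moved by over 1.5 times, among them H2BC8 (0.0025 to 2.04), H4C5 (0.067 to 0.48), H1-5 (down to -7.35), H1-10 (0.14 to 0.50), SLBP (0.023 to 0.14) and CASP8AP2 (-0.40 to -0.076). A group left with 1 library was assumed to vary like the other. The cause of these moves was not tested.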
